A study of Mus musculus with 18 samples.

Results

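The atrial chamber genes are 6 mouse genes that are known for higher expression in the atria than in the ventricles of the heart: Nppa, Myl4, Myl7, Sln, Bmp10 and Gja5. They were taken as a named list, with 1 probe set per gene, and are 6 of the 19912 genes measured. Each of the 6 had 1 probe set on the array, and that probe set named no other gene. Levels were measured on 18 Affymetrix mouse Gene 1.0 ST arrays, 3 for each of 6 groups of cells from CD1 mice. Neonatal cardiomyocytes (CM) and neonatal cardiac fibroblasts (CF) were the reference cells. GFP+ induced cardiomyocyte-like cells (iCMs), made from fibroblasts, and GFP- cells, labelled as failed reprogramming, were each taken at 2 weeks and at 4 weeks. The labels do not name the reprogramming factors, the promoter that drives GFP, the age of the neonatal mice in days or the chamber from which the cardiomyocytes came, and they do not say whether animals were pooled. No group was labelled as atrial or ventricular, so the chamber specificity in the genes' name could not be checked here. Each group's 3 arrays are biological replicates per the design text, which does not say what was separate (animals, cultures), so p-values reflect only how these arrays vary.

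Cardiomyocytes of the atrium and of the ventricle build much of the same contractile machine from different parts. Each myosin head carries an essential and a regulatory light chain, and atrial cells use Myl4 and Myl7 where ventricular cells use Myl3 and Myl2. Atrial cells also store and secrete the natriuretic peptide Nppa, restrain the calcium pump of the sarcoplasmic reticulum with sarcolipin (Sln) where ventricular cells rely more on phospholamban (Pln), and couple to each other through connexin 40 (Gja5). Bmp10 is a secreted ligand of the bone morphogenetic protein family that is made by trabecular myocardium of the embryo and by the right atrium afterwards. Several of these genes are shared more widely before and around birth: Nppa and Bmp10 mark the trabeculae of the fetal ventricle, Myl4 is also found in fetal ventricle and embryonic skeletal muscle, and Gja5 is also a gene of the ventricular conduction system and of arterial endothelium.

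The 6 genes split into those that were high in iCMs and those that were not. Against fibroblasts, 6 of 6 were higher in cardiomyocytes (limma adjusted p under 0.05, a rule that calls 19.6% of all genes higher in this comparison), 5 of 6 in iCMs at 2 weeks (17.4% of all genes) and 4 of 6 in iCMs at 4 weeks (14.3%). The median log2 difference over the 6 genes was 4.90 in cardiomyocytes (4.54 with Bmp10 at its lower bound), 3.92 in 2-week iCMs and 3.97 in 4-week iCMs, where the median over all genes was 0.03, 0.03 and 0.02. The share of all genes called lower was 21.5%, 15.8% and 15.2% in the same comparisons. These shares of higher and lower genes are the background for the counts of other gene lists against fibroblasts given below. These 3 comparisons use the same fibroblast arrays. Nppa, Myl4, Myl7 and Sln made up the high part in iCMs. Bmp10 stayed under the background level in every iCM array, and Gja5 stood far below the cardiomyocytes in all of them. The background level used here is 6.16 log2: the 25th percentile was taken in each array, and the lowest kept, and the highest value of each array lay between 13.82 and 13.95.

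**Figure D1:**
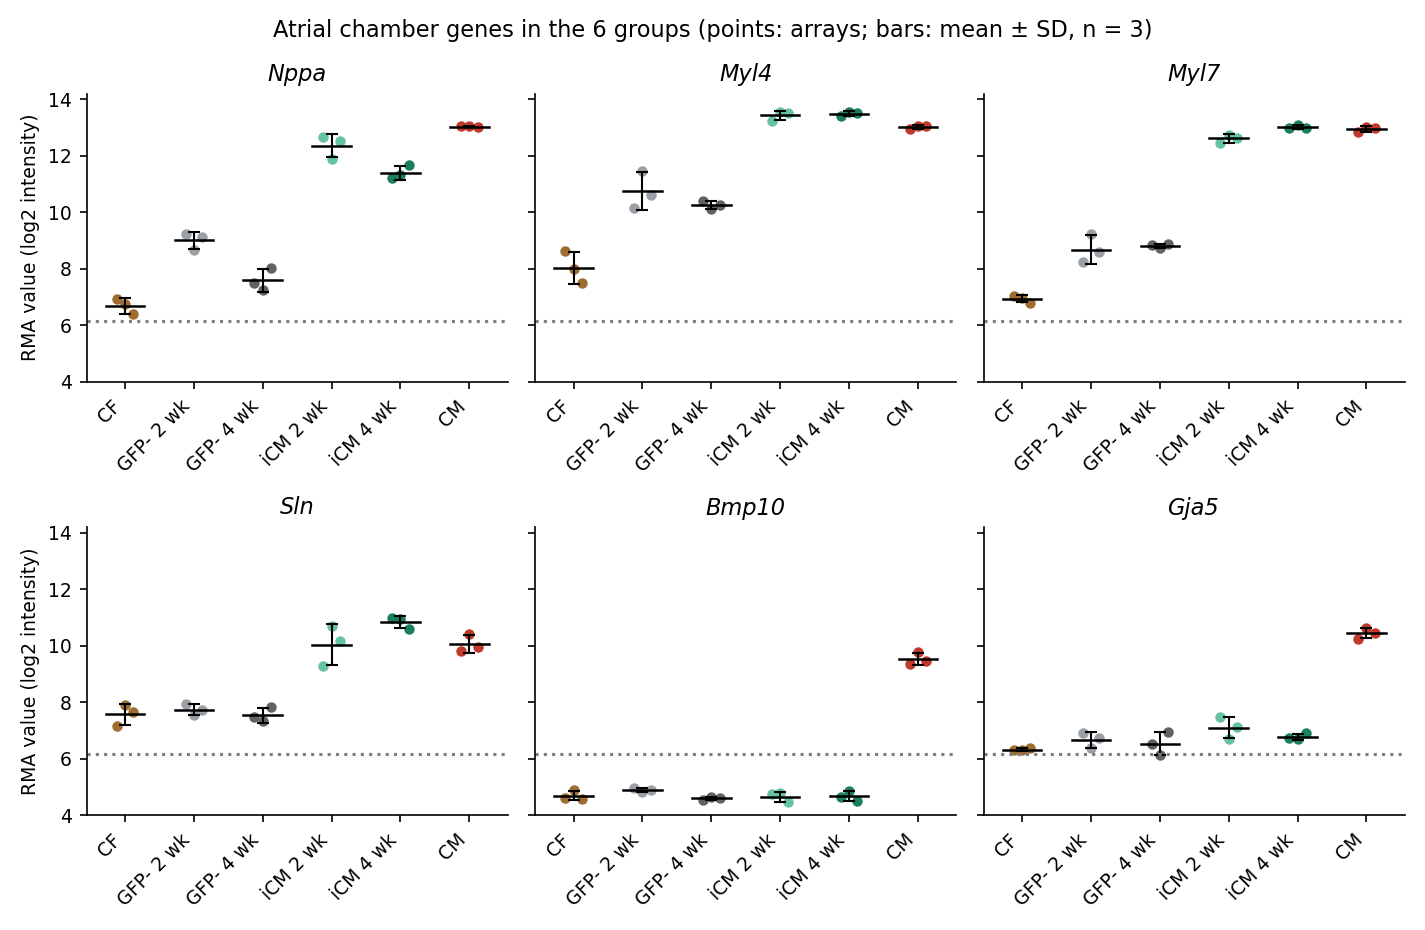
RMA values (log2 intensity, y axis) of the 6 genes in the 6 groups (x axis), with 1 point per array, a horizontal line at the mean and bars of 1 SD (n = 3); the dotted line is the background level of 6.16. Nppa, Myl4, Myl7 and Sln are high in both iCM groups, while Bmp10 is above the dotted line in the 3 cardiomyocyte arrays alone and Gja5 is above 10 there alone.

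The sequences just upstream of the RefSeq start are shown for 4 of the genes, because they belong to 2 genes that were far above fibroblasts in iCMs (Nppa and Myl7) and to the 2 that were not (Bmp10 and Gja5). They were read from RefSeq on GRCm38.p6 as the 250 bases before the start, on the strand of the gene, and capitals mark matches on either strand to the letters named below.
Nppa, chr4:148000472-148000721, + strand: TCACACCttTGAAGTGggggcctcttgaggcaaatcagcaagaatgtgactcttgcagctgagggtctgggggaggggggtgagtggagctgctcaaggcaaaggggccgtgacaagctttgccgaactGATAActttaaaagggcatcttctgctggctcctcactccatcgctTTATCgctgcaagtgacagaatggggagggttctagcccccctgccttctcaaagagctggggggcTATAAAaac
Myl7, chr11:5898783-5899032, - strand: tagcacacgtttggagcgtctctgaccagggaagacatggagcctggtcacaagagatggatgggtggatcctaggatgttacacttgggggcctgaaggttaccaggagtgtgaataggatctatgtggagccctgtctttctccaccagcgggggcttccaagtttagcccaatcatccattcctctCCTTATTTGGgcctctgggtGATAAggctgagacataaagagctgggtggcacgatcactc
Bmp10, chr6:87428744-87428993, + strand: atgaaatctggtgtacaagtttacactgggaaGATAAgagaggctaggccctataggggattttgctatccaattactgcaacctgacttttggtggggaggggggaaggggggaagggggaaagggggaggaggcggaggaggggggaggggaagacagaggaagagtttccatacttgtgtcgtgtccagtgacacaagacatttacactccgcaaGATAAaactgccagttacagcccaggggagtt
Gja5, chr3:97032152-97032401, + strand: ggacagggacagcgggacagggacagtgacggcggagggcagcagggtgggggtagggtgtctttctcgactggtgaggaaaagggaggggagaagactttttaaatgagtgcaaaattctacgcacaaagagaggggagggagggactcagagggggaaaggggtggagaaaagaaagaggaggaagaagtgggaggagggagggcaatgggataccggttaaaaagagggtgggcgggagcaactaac

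Matches were sought for the letters GATAA (GATA factors), TCACACC (T-box factors), TNAAGTG (Nkx2-5), TATAAA (the TATA box), the MEF2 site and the CArG box of serum response factor, on both strands, in the 5 genes that had an entry. GATAA occurred at 2 places upstream of Nppa, at 2 places upstream of Bmp10 and at 1 place upstream of Myl7, and 22.5% of the 32536 distinct upstream sequences of the RefSeq table hold it. The Nppa sequence also holds TCACACC (3.3% of all such sequences), TNAAGTG (10.0%) and TATAAA (12.3%). The Myl7 sequence holds a CArG box, which 1.5% of all sequences hold, ending 52 bases before the start. None of the 6 motifs, the MEF2 site (2.9%) among them, occurred in the sequences of Gja5 and Myl4. The entry of Myl4 lies inside the gene as RefSeq annotates it (chr11:104546017-104587215), and Sln had none. GATAA was thus found upstream of a gene that was high in iCMs and of one that was not, and a match describes letters only.

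Myl4 and Myl7, the atrial essential and regulatory light chains of myosin, stood near the cardiomyocyte level in iCMs at both times. Myl7 stood at 7.05, 6.95 and 6.80 log2 in the 3 fibroblast arrays, at 12.46, 12.75 and 12.61 in 2-week iCMs, at 12.98, 13.09 and 13.00 in 4-week iCMs and at 12.84, 13.02 and 12.98 in cardiomyocytes. All iCM arrays lay far above all fibroblast arrays, and those of 4 weeks overlapped with the cardiomyocytes. Against cardiomyocytes, Myl7 differed by -0.34 ± 0.16 log2 (SE, n = 3) at 2 weeks (limma adjusted p = 0.106, 95% confidence interval -0.68 to 0.00) and by 0.07 ± 0.16 at 4 weeks (adjusted p = 0.793, interval -0.27 to 0.41). The 2-week difference passed the test with quantile normalization (adjusted p = 0.0361), with cyclic loess normalization (0.0287), when only the groups compared were fitted (0.029) and when replicate 1 (0.0403) or replicate 2 (0.0119) of the 2-week GFP- cells was left out.

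Myl4 stood at 8.63, 8.00 and 7.49 log2 in fibroblasts, at 13.23, 13.54 and 13.51 in 2-week iCMs, at 13.40, 13.55 and 13.51 in 4-week iCMs and at 12.93, 13.05 and 13.06 in cardiomyocytes. Every iCM array was above every cardiomyocyte array. The difference of 4-week iCMs from cardiomyocytes, 0.47 ± 0.25 log2 (SE, interval -0.05 to 1.00), did not pass the test over all genes (adjusted p = 0.167), nor did that of 2-week iCMs (0.41 ± 0.25, adjusted p = 0.213). Both passed when only the groups compared were fitted (adjusted p = 0.00164 at 4 weeks and 0.0111 at 2 weeks). The Myl4 values of iCMs lay within 1 log2 unit of the highest value of any array, where a difference can be compressed.

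The ventricular light chains behaved otherwise. Myl2, the regulatory light chain of the ventricle, stood at 13.68, 13.72 and 13.70 log2 in cardiomyocytes but at 7.04, 7.03 and 7.09 in 4-week iCMs, against 7.47, 7.36 and 7.30 in fibroblasts. Its difference from fibroblasts was 6.33 ± 0.08 log2 (SE) in cardiomyocytes and -0.33 ± 0.08 in 4-week iCMs, both called. Myl3, the ventricular essential light chain, differed from fibroblasts by 6.33 ± 0.10 in cardiomyocytes and by 0.17 ± 0.10 in 4-week iCMs (adjusted p = 0.253). In iCMs the atrial light chains thus stood near their cardiomyocyte levels and the ventricular ones near or below their fibroblast levels, each gene set against its own probe set. Of 10 genes of muscle myosin chains and a light chain kinase, Myl2 and Myl3 included, 9 were higher and 1 lower in cardiomyocytes than in fibroblasts, and 7 were higher and 1, Myl2 itself, lower in 4-week iCMs. Among those called in 4-week iCMs were the alpha-myosin heavy chain Myh6 (5.29 ± 0.21), which is shared by mouse atrium and ventricle after birth, the fetal ventricular beta-myosin Myh7 (0.93 ± 0.08), the fast skeletal light chain Myl1 (1.96 ± 0.20) and the smooth muscle light chain Myl9 (1.35 ± 0.21).

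**Figure D2:**
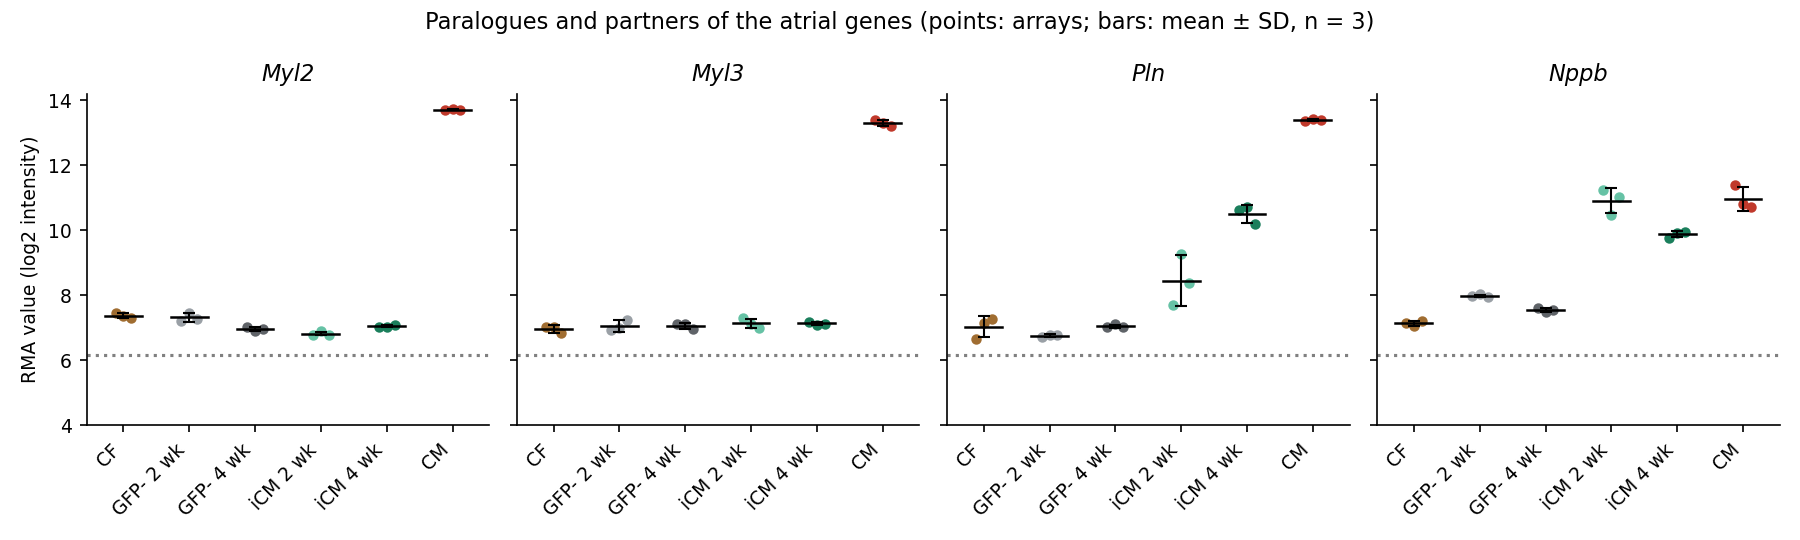
RMA values (log2 intensity, y axis) in the 6 groups (x axis) for the ventricular light chains Myl2 and Myl3, for phospholamban (Pln) and for the B-type natriuretic peptide gene Nppb, with 1 point per array, the mean and bars of 1 SD (n = 3); the dotted line is the background level. Myl2 and Myl3 are above 13 in cardiomyocytes and under 8 in every other group, Pln is intermediate in iCMs, and Nppb has means of 10.90 in 2-week iCMs and 10.97 in cardiomyocytes.

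Nppa, the precursor of atrial natriuretic peptide, was high in iCMs at 2 weeks and lower at 4 weeks. It stood at 6.93, 6.77 and 6.39 log2 in fibroblasts, at 12.66, 11.90 and 12.52 in 2-week iCMs, at 11.21, 11.30 and 11.67 in 4-week iCMs and at 13.05, 13.03 and 13.01 in cardiomyocytes. The 4 groups did not overlap. Nppa was 50.6-fold higher than in fibroblasts at 2 weeks and 26-fold higher at 4 weeks, against 80.7-fold in cardiomyocytes. From 2 to 4 weeks it fell by 0.96 ± 0.21 log2 (SE, limma adjusted p = 0.00504), and the difference of 4-week iCMs from cardiomyocytes was -1.64 ± 0.21 (adjusted p = 2.31e-06). The difference between 2-week iCMs and cardiomyocytes (-0.67 ± 0.21, adjusted p = 0.0128) was lost without replicate 2 of the 2-week iCMs (-0.44, adjusted p = 0.103).

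Nppb, which encodes the B-type natriuretic peptide and is the gene next to Nppa on chromosome 4, took a similar course. It stood at 7.14 ± 0.08 log2 (SD, n = 3) in fibroblasts, at 10.90 ± 0.39 in 2-week iCMs, at 9.88 ± 0.10 in 4-week iCMs and at 10.97 ± 0.37 in cardiomyocytes. From 2 to 4 weeks in iCMs Nppb fell by 1.03 ± 0.16 (SE, adjusted p = 0.000383). Corin, the protease that cleaves the Nppa precursor, went the other way over the same time and rose by 0.90 ± 0.20 (adjusted p = 0.00645), to 9.71 ± 0.50 (SD) at 4 weeks against 9.98 ± 0.26 in cardiomyocytes. The guanylyl cyclase receptor Npr2, which binds the C-type peptide, was higher in 4-week iCMs than in fibroblasts (1.76 ± 0.17) and than in cardiomyocytes (1.57 ± 0.17). The gene of the Nppa receptor, Npr1, stood between 6.78 and 7.24 as a group mean throughout. Of the 9 genes of the natriuretic peptide pathway measured beside Nppa, 4 were higher and 0 lower than in fibroblasts at 4 weeks, with a median of -0.003 (all genes 0.02). The counts were 5 and 1 in cardiomyocytes.

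Sarcolipin, the small membrane protein that inhibits the calcium pump Atp2a2, was the member that exceeded the cardiomyocyte level by the test. Sln stood at 7.18, 7.91 and 7.66 log2 in fibroblasts, at 9.28, 10.69 and 10.15 in 2-week iCMs, at 10.97, 10.95 and 10.58 in 4-week iCMs and at 9.83, 10.43 and 9.95 in cardiomyocytes. The arrays of 4-week iCMs lay above all cardiomyocyte arrays, and those of 2 weeks spread across them. Sln in 4-week iCMs was 9.52-fold higher than in fibroblasts and higher than in cardiomyocytes by 0.76 ± 0.26 log2 (SE, adjusted p = 0.0266, interval 0.22 to 1.31). That last call was lost with cyclic loess normalization (adjusted p = 0.053) and without replicate 1 (0.0852) or 2 (0.0841) of the 4-week iCMs or replicate 1 (0.108) or 3 (0.0891) of the cardiomyocytes.

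Phospholamban, the related inhibitor of the same pump, was far below the cardiomyocyte level in iCMs. Pln stood at 13.37, 13.43 and 13.38 log2 in cardiomyocytes, at 7.70, 9.27 and 8.38 in 2-week iCMs, at 10.61, 10.72 and 10.20 in 4-week iCMs and at 6.67, 7.14 and 7.28 in fibroblasts. It rose by 2.06 ± 0.25 (SE, adjusted p = 3.45e-05) from 2 to 4 weeks and still differed from cardiomyocytes by -2.88 ± 0.25 (adjusted p = 9.1e-09). The pump itself, Atp2a2, differed from cardiomyocytes by -0.14 ± 0.07 at 4 weeks (adjusted p = 0.137). Of the 8 genes of the pump, its regulators and calcium release measured beside Sln, 7 were higher and 0 lower than in fibroblasts both in cardiomyocytes (median 3.33) and in iCMs at 2 weeks (1.28) and 4 weeks (2.07). The calcium release channel Ryr2 (5.03 ± 0.10), the calcium store protein Casq2 (5.02 ± 0.28) and the histidine-rich calcium binding protein Hrc (2.77 ± 0.21) were among them at 4 weeks. The exception in each comparison was Atp2a1, the pump of fast skeletal muscle.

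Gja5, which encodes connexin 40, moved little in iCMs. It stood at 6.32, 6.30 and 6.38 log2 in fibroblasts, at 7.48, 6.71 and 7.14 in 2-week iCMs, at 6.72, 6.72 and 6.91 in 4-week iCMs and at 10.26, 10.63 and 10.45 in cardiomyocytes. The fibroblast values lay just above the background level of 6.157, and 1 array of 4-week GFP- cells (6.155) lay just under it. Differences so near that level can be compressed. The arrays of both iCM groups lay above those of fibroblasts without overlap, and all were more than 2 log2 units below those of cardiomyocytes. The difference from fibroblasts was 0.78 ± 0.19 log2 (SE, adjusted p = 0.00248) at 2 weeks and 0.45 ± 0.19 (adjusted p = 0.0763) at 4 weeks, against 4.11 ± 0.19 in cardiomyocytes. The 4-week value was called with array weights (0.0022), when only the groups compared were fitted (0.002), and without replicate 2 of the 2-week iCMs or replicate 3 of the 4-week GFP- cells (0.0454 in both). Against GFP- cells of the same time, Gja5 did not pass at 2 weeks (0.43 ± 0.19, adjusted p = 0.0832) or at 4 weeks (0.25 ± 0.19, adjusted p = 0.348). At 2 weeks it did pass without replicate 1 of the GFP- cells (0.049) or replicate 2 of the iCMs (0.0118), and at 4 weeks with array weights (0.0204).

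Other connexins gave different values. Gja1, connexin 43 of working myocardium, was higher in 4-week iCMs than in fibroblasts by 1.73 ± 0.16 log2 (SE), and Gjc1, connexin 45, by 0.67 ± 0.12. Both were lower than in cardiomyocytes, with differences of -1.05 ± 0.16 and -1.72 ± 0.12. Of 9 other connexins listed, 6 were measured, and of these 3 were higher and 0 lower than in fibroblasts in 4-week iCMs, and 4 and 0 in cardiomyocytes. Because Gja5 is also a gene of arterial endothelium, endothelial markers are given beside it. The mean of 12 endothelial markers lay at 8.35 to 8.45 log2 in cardiomyocyte arrays, 8.11 to 8.38 in 4-week GFP- arrays, 7.74 to 7.80 in 2-week GFP- arrays, 7.26 to 7.35 and 7.07 to 7.20 in 4-week and 2-week iCM arrays and 6.88 to 7.01 in fibroblast arrays. In the 4-week GFP- arrays the endothelial markers Emcn (11.06 ± 0.15, SD) and Pecam1 (9.44 ± 0.38) were above their levels in cardiomyocytes (9.56 ± 0.18 and 9.03 ± 0.17). The mean of all 12 markers was not, at 8.28 against 8.41 in cardiomyocytes. Gja5 stood at 6.51, 6.16 and 6.95 in the 4-week GFP- arrays. The part of endothelial cells in the level of Gja5 was not tested.

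Bmp10 was found in cardiomyocytes alone. It stood at 9.35, 9.76 and 9.45 log2 there. In the other 15 arrays it ran from 4.46 to 4.98, all under the background level, with group means of 4.70 in fibroblasts, 4.67 and 4.69 in 2-week and 4-week iCMs, and 4.90 and 4.61 in 2-week and 4-week GFP- cells. Bmp10 was at least 10.3-fold higher in cardiomyocytes than in fibroblasts, a lower bound taken against the background level (limma adjusted p = 3.4e-17). Below background no order between the other groups can be read, and the values do not show whether Bmp10 transcripts were absent there.

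The receptors and targets of Bmp10 were measured as well. Of 16 such genes, 5 were higher and 8 lower in cardiomyocytes than in fibroblasts (median -0.21), where 19.6% of all genes were higher and 21.5% lower. In 4-week iCMs 7 were higher and 3 lower (median 0.18, all genes 0.02), where 14.3% of all genes were higher and 15.2% lower, so that the count of lower genes is near the share over all genes. The type I receptor Bmpr1a was higher in 4-week iCMs than in fibroblasts (0.69 ± 0.15, SE) and the endothelial type I receptor Acvrl1 lower (-0.87 ± 0.09). Neither difference from cardiomyocytes passed the test (adjusted p = 0.716 and 0.866). Id2, an inhibitor of DNA binding that responds to this signal, was lower than in fibroblasts both in 4-week iCMs (-1.57 ± 0.14) and in cardiomyocytes (-2.05 ± 0.14). Myocd, the cofactor of serum response factor, was at least 7.69-fold higher in cardiomyocytes than in fibroblasts and lower in 4-week iCMs than in cardiomyocytes (-2.65 ± 0.10).

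To set the genes on a common scale, each array was given a position on the log2 scale, where the fibroblast mean of the gene is 0% and its cardiomyocyte mean 100%. At 2 weeks iCMs stood at 89.4% ± 6.4 (SD, n = 3) for Nppa, 108.3% ± 3.4 for Myl4, 94.4% ± 2.4 for Myl7 and 98.8% ± 28.7 for Sln. For Gja5 the position was 18.9% ± 9.4. At 4 weeks the positions were 74.2% ± 3.9, 109.5% ± 1.6, 101.2% ± 1.0, 130.6% ± 8.9 and 11.0% ± 2.7 in the order of Nppa, Myl4, Myl7, Sln and Gja5. Bmp10 is given no position, since its fibroblast and iCM values were under the background level. The fibroblast values of Gja5 lay just above that level, so its positions can be compressed. No iCM array of Gja5 passed 27.8%, and no iCM array of the other 4 genes was under 68.0%. The spacing depends on the scale. At 2 weeks the linear positions were 63.9% ± 16.9 for Nppa, 134.6% ± 15.8 for Myl4, 78.9% ± 7.9 for Myl7, 105.0% ± 57.6 for Sln and 4.6% ± 2.8 for Gja5. At 4 weeks they were 31.6% ± 5.8, 140.3% ± 7.8, 105.3% ± 4.7, 183.0% ± 29.9 and 2.3% ± 0.7 in the same order.

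**Figure D3:**
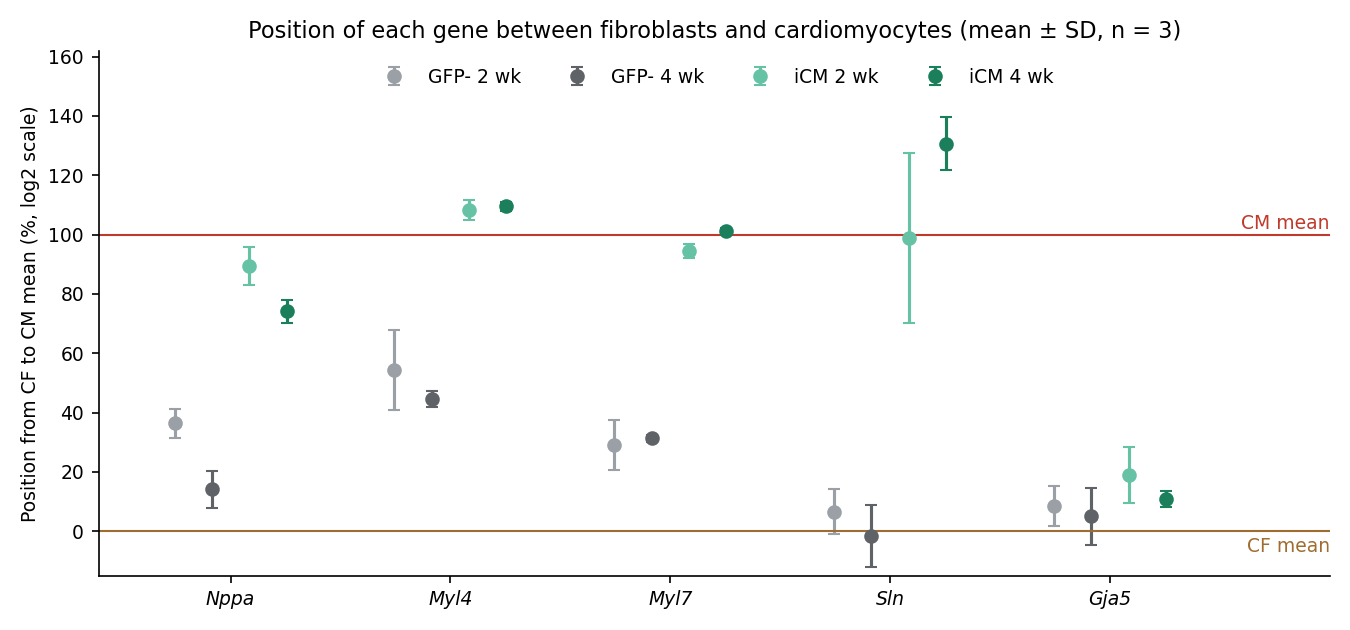
Position of GFP- cells and iCMs at 2 and 4 weeks between the fibroblast mean (0%) and the cardiomyocyte mean (100%) on the log2 scale (y axis) for each gene but Bmp10 (x axis); points are means of 3 arrays and bars 1 SD. The iCM points of Nppa, Myl4, Myl7 and Sln lie between 74.2% and 130.6%, those of Gja5 at 18.9% and 11.0%.

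The GFP- cells, which the labels call failed reprogramming, were above fibroblasts for some of the atrial genes. Of the 6 genes, 3 were higher than in fibroblasts at 2 weeks (13.8% of all genes were called higher) and 3 at 4 weeks (5.79%), Nppa, Myl4 and Myl7 both times. Myl4 stood at 10.15, 11.47 and 10.60 log2 at 2 weeks and at 10.40, 10.13 and 10.25 at 4 weeks, 6.49-fold and 4.66-fold above fibroblasts. Myl7 stood at 8.22, 9.24 and 8.59 at 2 weeks and at 8.83, 8.73 and 8.89 at 4 weeks, 3.36-fold and 3.69-fold above fibroblasts. Nppa stood at 9.25, 8.66 and 9.12 at 2 weeks and at 7.49, 7.25 and 8.03 at 4 weeks, 4.96-fold and 1.86-fold above fibroblasts (adjusted p = 1.72e-07 and 0.00628). Sln was not among them, with 7.94, 7.56 and 7.73 at 2 weeks and 7.48, 7.32 and 7.83 at 4 weeks, overlapping the fibroblast arrays. Gja5 was called only at 2 weeks with array weights (0.50, limma adjusted p = 0.00932). With the 2-fold minimum Nppa at 4 weeks was not called (0.89 log2). Cardiomyocyte markers were also above fibroblasts: the mean of 8 markers ran from 8.20 to 8.60 in 2-week and from 8.29 to 8.40 in 4-week GFP- arrays, against 7.52 to 7.66 in fibroblasts and 12.77 to 12.85 in cardiomyocytes. That mean was 8.38 at 2 weeks and 8.36 at 4 weeks, while Nppa was lower at 4 weeks than at 2 weeks. In bulk samples fewer cells that express a gene and less RNA per cell cannot be told apart.

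The comparison of iCMs with GFP- cells of the same culture time sets GFP+ cells against cells labelled as failed reprogramming. The promoter that drives GFP is not named, so the part of the selection by GFP in these differences cannot be told. At 2 weeks 4 of 6 genes were higher in iCMs (16.2% of all genes) and at 4 weeks again 4 (17.2%), the same Nppa, Myl4, Myl7 and Sln. The differences at 4 weeks were 3.80 ± 0.21 log2 for Nppa (SE), 3.23 ± 0.25 for Myl4, 4.21 ± 0.16 for Myl7 and 3.29 ± 0.26 for Sln, with no overlap of arrays. For Myl4 the 2-week difference was 2.68 ± 0.25, for Myl7 3.93 ± 0.16, for Nppa 3.35 ± 0.21 and for Sln 2.30 ± 0.26. Macrophage markers differed in the same comparison: the mean of 8 markers was 12.22 to 12.26 in 2-week GFP- arrays and 12.03 to 12.21 in 4-week GFP- arrays, 9.75 to 10.12 and 9.15 to 9.39 in iCM arrays, 11.85 to 12.05 in fibroblast arrays and 6.29 to 6.50 in cardiomyocyte arrays, where 3 of the 8 were under the background level. The part of these cells in the differences of the atrial genes was not tested.

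Over time, Nppa was the 1 member that changed by the test in iCMs (7.24% of all genes were called lower and 4.29% higher) and the 1 member that changed in GFP- cells (10.2% lower), where it fell by 1.42 ± 0.21 log2 (SE, adjusted p = 8.8e-05). In GFP- cells Myl7 also passed with array weights (0.39, adjusted p = 0.0274) and without replicate 2 of the 2-week GFP- cells (0.41, 0.0191), and Myl4 passed without replicate 1 of them (-0.78, 0.0436). Sln in iCMs differed between 4 and 2 weeks by 0.79 ± 0.26 (adjusted p = 0.0547) and Myl7 by 0.41 ± 0.16 (adjusted p = 0.114). Sln passed with quantile normalization (0.0329), array weights (0.0499), an intensity trend (0.0405), a filter on dim genes (0.0429) and the replicate number as a block (0.0417), and without replicate 2 of the 2-week iCMs (0.00682) or replicate 1 of the fibroblasts (0.0473). Myl7 passed with quantile normalization (0.0418), array weights (0.0151), a fit of only the 2 groups (0.0364), and without replicate 1 (0.0449) or 2 (0.0128) of the 2-week GFP- cells. Myl4 differed by 0.06 ± 0.25 (interval -0.46 to 0.59). The change in iCMs minus that in GFP- cells was called for 0 of 6 genes with limma (3.94% of all genes in either direction), and at an unadjusted p under 0.05 for 1 of them, Sln (0.99 ± 0.37, adjusted p = 0.163). Sln passed that test with array weights (adjusted p = 0.0336) and without replicate 2 of the 2-week iCMs (0.0282), and Nppa with array weights (0.021).

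**Figure D4:**
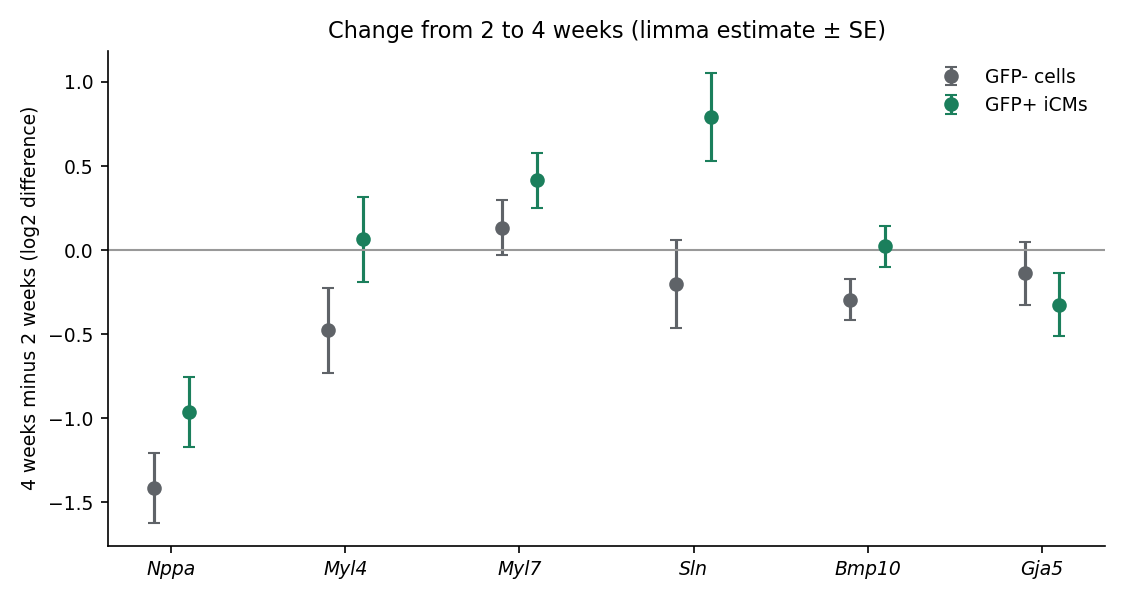
Log2 difference between 4 and 2 weeks (y axis) of each gene (x axis) in GFP- cells and GFP+ iCMs, as limma estimates with bars of 1 SE (3 arrays per group and time). Nppa lies below 0 in both (-1.42 in GFP- cells and -0.96 in iCMs), and Sln has its estimate at 0.79 in iCMs and -0.20 in GFP- cells.

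Against cardiomyocytes, 2-week iCMs had 3 of 6 genes lower and 0 higher (19.4% of all genes lower and 22.7% higher), namely Nppa, Bmp10 and Gja5. At 4 weeks 3 were lower and 1 higher (16.1% and 19.0% of all genes), the same 3 and Sln. The difference of Gja5 from cardiomyocytes was -3.34 ± 0.19 log2 (SE) at 2 weeks and -3.66 ± 0.19 at 4 weeks.

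Other genes known for atrial expression showed a range between these extremes. Of 12 such genes, 11 were higher and 0 lower in cardiomyocytes than in fibroblasts, 8 were higher and 2 lower in 2-week iCMs and 8 and 1 in 4-week iCMs, with medians of 1.67, 0.61 and 1.11 log2 (1.65, 0.57 and 0.86 with genes under the background level in fibroblasts at their lower bounds). Kcnj5 and Kcnj3 encode the subunits of the potassium channel that acetylcholine opens in atrial cells. In 4-week iCMs Kcnj5 was 2.84 ± 0.14 (SE) and Kcnj3 1.86 ± 0.22 above fibroblasts. Kcnj5 was 0.44 ± 0.14 above cardiomyocytes (adjusted p = 0.0219), and Kcnj3 lower than in them (-0.95 ± 0.22, adjusted p = 0.00148). Rgs6, which limits that channel's response, was at least 4.01-fold higher than in fibroblasts in 4-week iCMs and differed from cardiomyocytes by 0.19 ± 0.13 (adjusted p = 0.295). Tbx5, a T-box factor of the atria and left ventricle and one of the factors used for reprogramming in this field, was 4.59 ± 0.11 above fibroblasts, and whether introduced copies are counted is not stated. The orphan receptors Nr2f1 and Nr2f2, which specify atrial identity, did not follow: Nr2f2 was lower than in fibroblasts at 4 weeks (-0.48 ± 0.12) and Nr2f1 did not pass (-0.25 ± 0.12, adjusted p = 0.126). Angpt1, a ligand of the endothelial receptor Tek that is made by atrial myocardium, was lower than in cardiomyocytes (-3.58 ± 0.22).

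Of 9 genes known for ventricular expression, 8 were higher and 0 lower in cardiomyocytes than in fibroblasts, with a median of 3.56 log2 (3.29 with Hey2 at its lower bound), but 3 were higher and 1 lower in iCMs at 2 weeks and again at 4 weeks, with medians of 0.16 and 0.17 (all genes 0.03 and 0.02). Against cardiomyocytes 8 of the 9 were lower in 4-week iCMs and 0 were higher, with a median of -2.71, where the median of the 6 atrial genes was -0.78. Among them were the ventricular repressor Hey2 (-3.02 ± 0.13, SE) and the ventricular homeobox factor Irx4 (-1.57 ± 0.12). In the plot of differences from fibroblasts Sln, Myl4 and Myl7 lay at or above the line of equal difference, Nppa lay below it, and Gja5 and Bmp10 lay near 0 for iCMs. No test was made of the atrial list against the ventricular one.

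**Figure D5:**
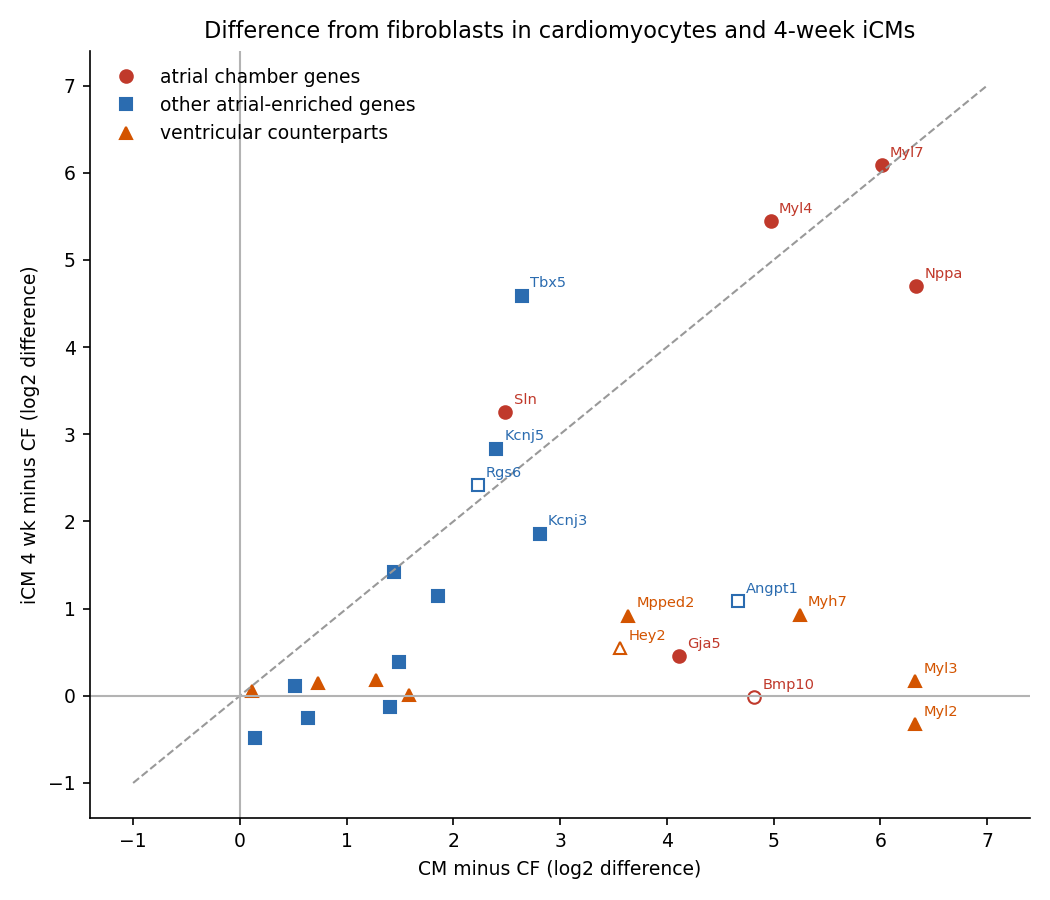
Log2 difference from fibroblasts in 4-week iCMs (y axis) against that in cardiomyocytes (x axis), 1 point per gene, for the 6 atrial chamber genes, 12 other atrial-enriched genes and 9 ventricular genes; the dashed line marks equal differences, and both axes share the fibroblast arrays. Open symbols are genes under the background level in fibroblasts, drawn at the fitted value though their differences are lower bounds, or no fold where both groups are under it. Myl7 (6.01 and 6.09) and Myl4 (4.97 and 5.45) lie at or above the line, while Gja5 (4.11 and 0.45) and Bmp10, an open symbol, lie near 0 on the y axis.

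Regulators of these genes and conduction genes were measured on the same arrays. Of 9 transcription factors that act on atrial genes, 6 were higher and 2 lower in cardiomyocytes than in fibroblasts. In 4-week iCMs 5 were higher and 0 lower, among them Gata4 (1.97 ± 0.13, SE) and Mef2c (1.13 ± 0.13). Like Tbx5, Gata4 and Mef2c are factors used for reprogramming in this field, and whether introduced copies are counted is not stated. In 4-week iCMs Gata6 (-1.33 ± 0.12) and Meis1 (-1.14 ± 0.10) were lower than in cardiomyocytes. Of 7 conduction genes, 3 were higher and 1 lower than in fibroblasts in 4-week iCMs: the pacemaker channel gene Hcn4 (0.50 ± 0.10), Tbx3 (1.00 ± 0.14) and Shox2 (at least 1.73-fold) were higher. Etv1, a factor of fast conduction tissue in which Gja5 is expressed, was lower (-2.65 ± 0.14). In cardiomyocytes 2 of the 7 were higher than in fibroblasts and 0 lower.

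The labels were checked against marker genes. All 8 cardiomyocyte markers were called higher in cardiomyocytes and in both iCM groups than in fibroblasts, and their mean ran from 11.14 to 11.53 log2 in 2-week and from 11.84 to 11.93 in 4-week iCM arrays. Of 8 fibroblast markers, 6 were lower in cardiomyocytes and 7 lower and 1 higher in 4-week iCMs. The 8 macrophage markers had a mean of 11.95 log2 in fibroblast arrays, against 6.41 in cardiomyocyte arrays. The fibroblast arrays, to which these differences refer, thus also held macrophage transcripts. Of 10 skeletal muscle markers, 4 were higher in 4-week iCMs, led by the fast troponin Tnnt3 (3.80 ± 0.12, SE), while Myod1, Myog and Myf5 stood at group means of 5.88 to 7.64 in all groups. Of 7 smooth muscle markers 2 were higher and 1 lower, of 6 endocardial markers 0 higher and 1 lower, and of 5 erythroid markers 0 and 0 in 4-week iCMs. Over all genes 14.3% were higher and 15.2% lower there, so that the counts of lower genes among the smooth muscle and the endocardial markers are near that share. The smooth muscle markers called higher, Des and Myh11, were also higher in cardiomyocytes than in fibroblasts. Of the others, Cnn1 and Smtn were higher in cardiomyocytes than in fibroblasts, and Tagln, Acta2 and Lmod1 lower. Against cardiomyocytes, Tagln (3.26 ± 0.24), Acta2 (0.94 ± 0.23), Myh11 (0.37 ± 0.11) and Lmod1 (0.30 ± 0.10) were higher in 4-week iCMs. Cnn1 (-1.82 ± 0.25), Des (-1.05 ± 0.32) and Smtn (-0.73 ± 0.08) were lower. In cardiomyocytes, where Bmp10 and Gja5 were high, 3 endocardial markers were higher than in fibroblasts (Npr3 by 0.65 ± 0.13, Tmem100 at least 1.93-fold and Hapln1 at least 1.15-fold) and 2 were lower, and 1 erythroid marker, Alas2, was higher (0.55 ± 0.12, adjusted p = 0.000705). The part of any of these cells in the levels of the atrial genes was not tested.

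The genes whose values followed each member most closely over the 18 arrays were other for each member. By Pearson correlation Myl7 was closest to Actc1 (0.995), Tnnc1 (0.992) and Csrp3 (0.989), and Myl4 to Tnnt2 (0.987), Dsp (0.984) and Myl7 (0.973). Nppa was closest to Ldhb (0.981), Nppb (0.981) and Art3 (0.976), and Sln to Rxfp1 (0.981), Armh4 (0.975) and Rgs6 (0.974). Bmp10 was closest to Klhl41, Myl3 and Myl2 (0.995 each), and Gja5 to Lrtm1 (0.989), Slc38a4 (0.982) and Pdzrn4 (0.980). Among the members, Myl4 and Myl7 correlated at 0.973 and Bmp10 and Gja5 at 0.971, whereas Myl4 and Bmp10 correlated at 0.327. These correlations describe 18 arrays in 6 groups and are set mainly by the differences between groups.

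Within groups the members did not vary as 1 unit. In both 2-week groups replicate 2 had the highest Myl4 and Myl7 and the lowest Nppa and Gja5 of its group: in 2-week GFP- cells Myl7 stood at 9.24 in replicate 2 against 8.22 and 8.59, and Nppa at 8.66 against 9.25 and 9.12. Deviations from the group means correlated at 0.879 between Myl4 and Myl7 and at 0.831 between Nppa and Gja5 over the 18 arrays, but at -0.361 between Nppa and Myl7. Sln and Pln shared their order in 2-week iCMs, with replicate 1 lowest and replicate 2 highest. The spread of Sln was widest there, 1.42 log2 between the lowest and highest array, against 0.40 in 4-week iCMs.

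The order of the 6 groups differed by gene. For Nppa it was cardiomyocytes, 2-week iCMs, 4-week iCMs, 2-week GFP- cells, 4-week GFP- cells and fibroblasts, with no overlap of arrays between neighbours. For Myl4, 4-week and 2-week iCMs overlapped at the top, followed by cardiomyocytes, then by the GFP- groups, which overlapped with each other, and fibroblasts. For Myl7, 4-week iCMs and cardiomyocytes overlapped, and so did the GFP- groups. For Sln, cardiomyocytes and 2-week iCMs overlapped below 4-week iCMs, and the GFP- and fibroblast groups overlapped at the bottom. For Gja5 and Bmp10 cardiomyocytes stood apart. Each neighbouring pair below them overlapped for Gja5, and no order is read for Bmp10 under the background level.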

How the data were processed

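Expression was measured on 18 Affymetrix mouse Gene 1.0 ST arrays, 3 in each of 6 groups. Per the submitters' processing notes the deposited log2 values were made with RMA, which corrects background, normalizes by quantiles and summarizes probes. The version and genome build are not given in the sources used here. Array medians ran from 7.32 to 7.44 log2, and arrays of 1 group correlated at 0.990 to 0.996. The number of arrays limits the precision. Of 28682 probe sets, 21755 named 1 gene, 1592 several and 5335 none in the platform annotation. For each of 19912 genes the single-gene probe set with the highest mean was kept. A single limma model (version 3.58.1, R 4.3.3) of the 6 group means used all arrays and gave 12 comparisons, with Benjamini-Hochberg adjustment over all genes and a threshold of 0.05. A group mean under the background level gives a lower bound of the fold. Promoter sequences came from RefSeq (GRCm38.p6).

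The members and the 17 other gene lists (142 of 149 genes measured) were chosen with earlier results of these data known. Named were all members, the 3 genes most like each, and up to 4 called genes per list with the largest differences. All other genes named were chosen after their values were seen. Alternatives were quantile and cyclic loess normalization, array weights, a filter on dim genes, an intensity trend in the prior, only the compared groups in the model, a 2-fold minimum, all single-gene probe sets, the replicate number as a block, linear values for positions, and leaving out each array.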

Additional observations from a re-analysis of the deposited data

How the results depend on the processing

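No difference of a member changed direction after being called: 607 of 636 differences under the 9 other settings and 1278 of 1296 with 1 array left out kept their side of the threshold, and 0 called differences reversed. Differences that were not called could change sign. With 1 array left out, that of Sln between 2-week iCMs and cardiomyocytes ran from -0.355 to 0.353. Many of these could not reverse. The intensity trend, the filter, the 2-fold minimum, the replicate block and a fit of only the compared groups leave a member's difference unchanged. All single-gene probe sets add none for the members. Leaving out an array of a group that is not compared also leaves the difference unchanged. Of the 6 genes, those called between 4-week and 2-week iCMs numbered 1, but 3 with quantile normalization or array weights, 2 with the filter on dim genes, an intensity trend or only the compared groups in the model, and 0 with the 2-fold minimum. Between 4-week and 2-week GFP- cells 1 was called, but 3 with array weights, among them Bmp10, which was under the background level at both times. The difference of the time changes had 0 called, but 2 with array weights. Between 2-week iCMs and cardiomyocytes 3 were called, but 5 in a fit of only the groups compared. The cause of these shifts was not tested.

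With 1 array left out, the members called ranged from 1 to 2 for the time change of iCMs (without replicate 1 or 2 of 2-week GFP- cells, replicate 2 of 2-week iCMs or replicate 1 of fibroblasts), from 1 to 2 for that of GFP- cells (without replicate 1 or 2 of 2-week GFP- cells) and from 0 to 1 for their difference (without replicate 2 of 2-week iCMs).

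Over all genes, array weights raised the count called to 7398 from 4520 (2-week GFP- cells against fibroblasts), 3720 from 2286 (4-week GFP- cells against fibroblasts), 5985 from 2297 (time in iCMs), 6087 from 3465 (time in GFP- cells) and 4191 from 785 (difference of time changes). A fit of only the groups compared gave 1486 for time in iCMs. The 2-fold minimum gave 2348 of 8169 for cardiomyocytes, 1440 of 6622 for 2-week iCMs, 1541 of 5878 for 4-week iCMs, 472 for 2-week and 402 for 4-week GFP- cells, all against fibroblasts. It gave 1798 of 6874 and 1703 of 6816 for iCMs against GFP- cells at 2 and 4 weeks, 2091 of 8381 and 1658 of 6989 for iCMs against cardiomyocytes at 2 and 4 weeks, 101 for time in iCMs, 308 for time in GFP- cells and 222 for the difference of time changes. Time in iCMs ranged from 1289 (without replicate 2 of 4-week iCMs) to 2491 with 1 array left out, with 1421 without replicate 3 of 2-week iCMs, and the difference of time changes from 514 (without replicate 1 of 4-week GFP- cells) to 1004.

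Arrays of different groups share replicate numbers. Deviations of 45 same-numbered pairs correlated between -0.301 and 0.454, with 15 over 0.1, and an array correlated best with its own number in 32 of 90 checks. Each check had the 3 arrays of another group to choose from, 1 of them with the same number. For replicates 1, 2 and 3 the values were 0.454, 0.345 and 0.084 between 2-week and 4-week iCMs. Between GFP- cells and iCMs of 2 weeks they were 0.27, 0.378 and -0.301. These values cannot decide whether arrays with the same number share a source. With the replicate number as a block, members called numbered 2 in place of 1 for time in iCMs (Sln, adjusted p = 0.0417) and 5 in place of 4 for 4-week iCMs against fibroblasts (Gja5, adjusted p = 0.0494).

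Array signal sets limits as well. Bmp10 outside cardiomyocytes was under the background level, and the filter on dim genes removed it from the test. Gja5 in fibroblasts was just above that level. Myl4, Myl7 and Nppa in cardiomyocytes were near the highest values of the arrays. Near either end differences can be compressed.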
